A study of Mus musculus with 8 samples.

Results

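The cytosines described here lie in the shores of dense CpG cores, the thinner margins on either side of the places where CpGs, a cytosine followed by a guanine, stand closest together. A core cytosine was one with at least 21 cytosines of the deposited methylation table within 100 bp on either side, itself included. A shore cytosine had at most 20 and a core cytosine within 2000 bp. This rule used positions alone, with no methylation value, and gave 408810 shore cytosines, 17.8% of the 2298998 cytosines listed on chromosomes 1 to 19. Another 684080 (29.8%) were core cytosines and 1206108 (52.5%) lay farther away. Core cytosines at gaps of 200 bp or less were joined into 15632 cores with a median of 32 core cytosines over 167 bp.

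The data come from stably transfected clones of NIH3T3 cells, immortalised fibroblasts of the mouse embryo. Clones labelled 14-3-3ε (numbers 10 and 12) carried that protein behind a FLAG tag in the plasmid p3xFLAG-CMV-10, in which a cytomegalovirus promoter drives expression, and clones labelled control (2 and 3) carried the control vector. All were grown from single colonies in 10% serum under selection with G418 at 800 µg/mL, so a group is 2 clones and a difference between single clones cannot be told apart from one between the groups. Methylation was read by reduced representation bisulfite sequencing (RRBS) of MspI fragments and RNA by RNA-seq in the same clones, giving 8 samples in 4 groups. Fibroblast markers were present, with 9 of 10 above a mean normalized count of 100 (Fap was listed at 0), while 5 of 6 epithelial and 5 of 7 blood and endothelial markers were under 10 in the authors' deposited table. Ywhae, the mouse gene of 14-3-3ε, had a log2 fold change of -0.03 (standard error, SE, 0.18; adjusted p 0.942) in the authors' deposited table, so its level does not check the labels.

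In mammalian DNA most CpGs are methylated, and the dense clusters called CpG islands, many of them at gene starts, are mostly kept free of methylation. Their flanks, the shores, are the zone in which methylation passes from the low level of the island to the high level of the surrounding DNA, and they are known as places where tissues and tumours often differ. The present cores are defined by the density of listed cytosines and need not be annotated islands. A reader should also know that RRBS lists cytosines near MspI sites, so a region without listed cytosines may still hold CpGs.

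For each cytosine the authors' deposited table holds the difference in methylation between the groups, in percentage points, with a q-value, and no level for either group and no value per clone. Higher and lower mean higher or lower in clones labelled 14-3-3ε than in clones labelled control. The file does not state this sign, and every direction below rests on it. A cytosine was called at q under 0.05. Coverage is unknown, and neither a spread between clones nor a replicate test can be given, so the shares and means below describe these clones.

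The start regions of 4 genes are printed first to show what lower and higher shores look like in sequence, a choice made with their values seen. Sequences are from RefSeq promoter entries of GRCm38.p6, the assembly behind build mm10, and run from 250 bases before to 50 after an annotated start site, 5′ to 3′ on the strand of the gene. Capitals mark each CpG at which a shore cytosine on either strand was called. All 62179 placements of a shore cytosine in such promoter entries, counted once per entry, read C on the strand listed, which checks the match of positions. The Pde8b entry is chr13:95223043-95223342 on the minus strand, that of Map2 chr1:66175079-66175378 on the plus strand, that of Chgb chr2:132781392-132781691 on the plus strand and that of Ptgr2 chr12:84285046-84285345 on the plus strand.
Pde8b: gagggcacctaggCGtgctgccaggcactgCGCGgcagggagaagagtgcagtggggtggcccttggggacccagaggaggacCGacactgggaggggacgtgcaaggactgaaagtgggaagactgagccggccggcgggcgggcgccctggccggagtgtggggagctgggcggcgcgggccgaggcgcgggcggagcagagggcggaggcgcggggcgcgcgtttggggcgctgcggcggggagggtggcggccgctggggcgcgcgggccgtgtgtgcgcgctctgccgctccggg
Map2: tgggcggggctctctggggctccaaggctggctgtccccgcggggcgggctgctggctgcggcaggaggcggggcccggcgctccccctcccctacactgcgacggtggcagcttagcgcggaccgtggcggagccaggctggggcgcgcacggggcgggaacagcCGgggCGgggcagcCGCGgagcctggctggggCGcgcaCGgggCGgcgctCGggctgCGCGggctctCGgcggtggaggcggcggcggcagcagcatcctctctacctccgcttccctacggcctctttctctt
Chgb: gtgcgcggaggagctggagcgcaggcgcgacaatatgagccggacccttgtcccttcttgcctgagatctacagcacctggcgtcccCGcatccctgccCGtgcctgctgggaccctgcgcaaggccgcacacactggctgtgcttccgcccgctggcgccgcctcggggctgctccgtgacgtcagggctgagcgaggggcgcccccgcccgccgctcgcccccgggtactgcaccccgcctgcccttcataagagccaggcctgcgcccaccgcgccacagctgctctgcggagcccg
Ptgr2: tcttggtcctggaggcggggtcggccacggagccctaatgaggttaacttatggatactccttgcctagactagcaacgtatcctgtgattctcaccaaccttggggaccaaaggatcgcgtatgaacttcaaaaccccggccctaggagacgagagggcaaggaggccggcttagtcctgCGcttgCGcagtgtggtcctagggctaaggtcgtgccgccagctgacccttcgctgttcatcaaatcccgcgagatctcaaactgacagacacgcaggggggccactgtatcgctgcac

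Pde8b encodes a phosphodiesterase that breaks down cyclic AMP. In the authors' deposited table the 8 shore cytosines of its printed entry were all called lower, from -54.3 to -34.6 percentage points, with a mean of -46.8. They belong to 4 of the 37 CpGs in the entry, between 166 and 237 bp upstream of the start site. The start site itself lies in the core beside them, where 49 of 102 core cytosines were also called lower and the mean difference was -20.002.

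Map2, whose protein binds microtubules, showed the opposite sign. Of 14 shore cytosines between 13 and 83 bp upstream of its start site, 11 were called higher, with differences from 8.08 to 24.1 in the authors' deposited table. The 3 that were not called had differences of 14.7, 13.1 and 0. All 14 were read on the minus strand. In the adjacent core of 29 core cytosines the mean difference was 8.88, and 3 were called higher.

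Chgb encodes a protein of secretory granules and Ptgr2 a prostaglandin reductase. At Chgb, 3 of 8 shore cytosines in the printed entry were called higher (48.5, 32.8 and 30.6 in the authors' deposited table). The others ranged from -5.18 to 16.4. At 1 of these CpGs the strands disagreed, with -5.18 uncalled on the plus strand and 30.6 called on the minus strand. At Ptgr2, 4 of 6 were called higher, from 19.9 to 31.2. Those lay 62 to 69 bp upstream of the start site. The remaining CpG, 81 and 82 bp upstream, differed by -2.66 on one strand and -3.12 on the other.

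**Figure D1:**
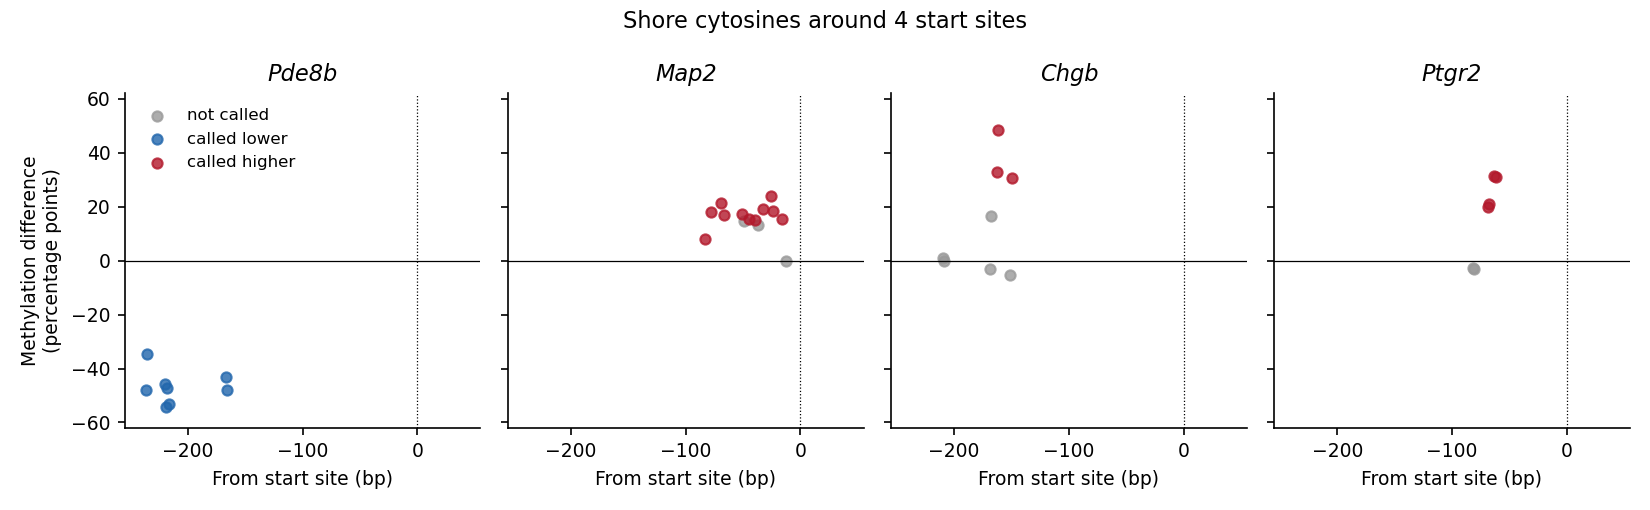
Methylation difference of each shore cytosine (vertical axis, percentage points, 14-3-3ε minus control as read here) against its distance from the annotated start site (horizontal axis, bp, negative upstream) for the printed entries of Pde8b, Map2, Chgb and Ptgr2; blue points were called lower, red higher, grey not called. The 8 points of Pde8b lie between -54.3 and -34.6, and 11 of the 14 points of Map2 were called higher.

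Over all shores, cytosines were lower more often than higher, and the differences were small on average. Of the 408810 shore cytosines, 20434 were called (4.998%), against 4.74% of all autosomal cytosines and of the whole table. Lower calls numbered 11943 (2.92%) and higher calls 8491 (2.08%), a ratio of 1.41, against shares of 2.82% lower and 1.92% higher and a ratio of 1.47 over all autosomal cytosines (2.83% lower and 1.92% higher over the whole table). The mean difference was -0.42 percentage points in shores, between -0.23 in cores and -0.64 far from cores. The called share lay in the same order, at 2.96% in cores and 5.66% far from cores.

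The called cytosines themselves differed by much more than these means. Lower calls had a median of -19.2 (25th and 75th percentiles -26.1 and -13.1) and higher calls a median of 18.1 (12.2 and 24.4). The extremes were -72.1 and 71.9 percentage points in the authors' deposited table. Lower calls outnumbered higher calls in the shores of all 19 autosomes. The shore mean was below the core mean on 17 autosomes, the exceptions being chromosomes 15 and 16, and it ranged from -0.75 on chromosome 14 to -0.21 on chromosome 3. On 18 autosomes the far mean was lower still, chromosome 14 being the exception. The difference between the shore and core means was -0.19 percentage points, and it shrank to -0.08 where each shore arm, the shore cytosines on 1 side of 1 core, counted once, and to -0.09 with cores of at least 31 or with a 50 bp window.

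The mean difference moved further below 0 with distance from the core out to 1000 bp, and calls were at their most frequent between 500 and 1000 bp. The mean difference was -0.34 at 1 to 100 bp, -0.41 at 100 to 250 bp and -0.45 at 250 to 500 bp. It was -0.59 at 500 to 1000 bp and -0.56 at 1000 to 2000 bp. Each step holds its upper bound and not its lower one. The called share rose along the same steps from 4.42% through 4.64% and 5.43% to 6.39%, and was 5.90% in the outermost step. Both signs took part: lower calls went from 2.58% to 3.83% and higher calls from 1.83% to 2.56% between the innermost step and 500 to 1000 bp.

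Beyond the shore the called share was smaller again before it rose. At 2000 to 4000 bp it was 5.15% and the mean difference -0.27, while beyond 32000 bp the values were 6.02% and -0.81. The step at 500 to 1000 bp had a larger called share than the innermost step on all 19 autosomes, and a larger one than 2000 to 4000 bp on 18. Its mean difference was below that of the innermost step on 16. In the last 100 bp inside the outer limit of the rule 6.06% were called with a mean of -0.70, and in the first 100 bp beyond it 5.98% with a mean of -0.07. At the inner limit, cytosines with a count of 20 had 4.47% called and a mean of -0.42, and those with 21, which count as core, 3.93% and -0.22.

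**Figure D2:**
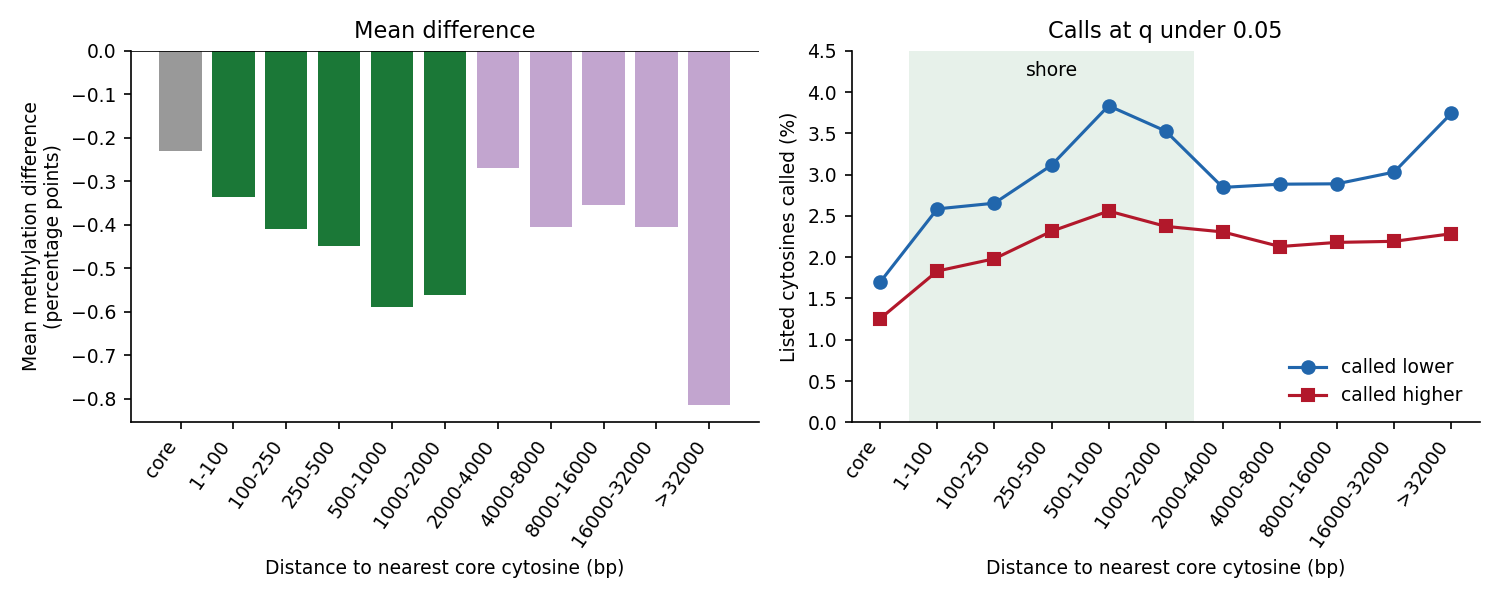
Mean methylation difference (left, percentage points) and share of listed cytosines called lower or higher (right, percent) by distance to the nearest core cytosine in bp; grey is core, green the shore steps, purple the steps beyond 2000 bp. The mean reaches -0.59 and the calls 3.83% lower and 2.56% higher at 500 to 1000 bp, and both are smaller at 2000 to 4000 bp.

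The size of the differences, whatever their sign, rose with distance as well. The mean size was 2.96 percentage points in cores and went from 4.24 in the innermost shore step to 5.85 in the outermost one. Differences listed as exactly 0 made up 19.1% of core cytosines, 11.4% of the innermost step and 3.99% of the outermost one. Among cytosines that differed by 20 to 30 points, the share called lay between 46.6% and 53.7% in the 5 shore steps with no order along the distance. Coverage per cytosine was not analysed here.

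Listed cytosines also thin out with distance, from a mean of 16.8 within 100 bp in the innermost step to 8.36 in the outermost one, so distance was set beside density. Among shore cytosines with 5 to 10 listed neighbours, itself counted, the called share was 4.19% at 1 to 100 bp, 6.999% at 500 to 1000 bp and 5.96% at 1000 to 2000 bp. Among those with 11 to 20 it was 4.43% in the innermost step and 6.65% in the outermost one, where it was largest. With 1 to 4 it was 4.30% at 100 to 250 bp and 5.13% at 500 to 1000 bp, leaving out the 80 such cytosines within 100 bp. A rise of the called share with distance was present at each density, and the step where it peaked was not the same. The mean difference was less even. With counts of 5 to 10 it was -0.52 at 1 to 100 bp, -0.34 at 250 to 500 bp and -0.64 at 500 to 1000 bp. With counts of 11 to 20 it was -0.33, -0.55 and -0.56 in the same steps. With 1 to 4 it went from -0.21 at 100 to 250 bp to -0.58 in the outermost step. Cytosines of the same density far from cores had 6.28% called with counts of 5 to 10 and 6.07% with counts of 11 to 20.

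**Figure D3:**
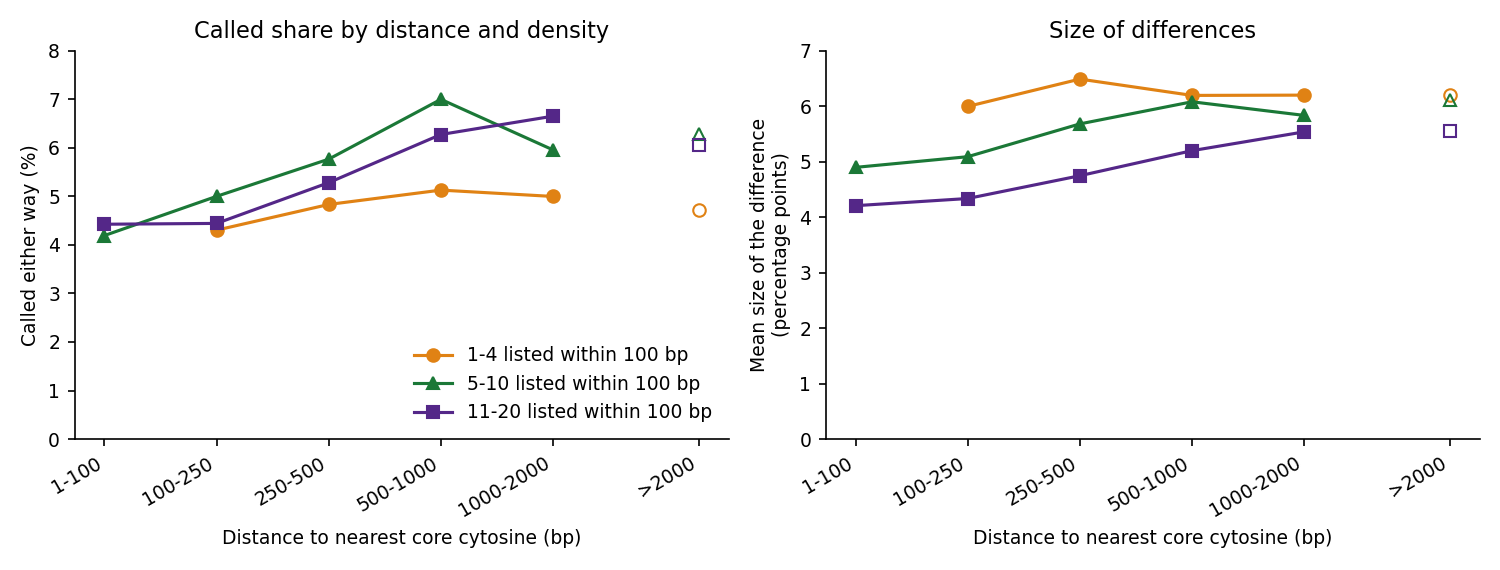
Share called in either direction (left, percent) and mean size of the difference (right, percentage points) by distance to the nearest core cytosine, for shore cytosines with 1 to 4, 5 to 10 or 11 to 20 listed cytosines within 100 bp; open symbols are cytosines of the same density beyond 2000 bp, and 1 point from 80 cytosines is left out. The called share peaks at 6.999% for counts of 5 to 10 and reaches 6.65% in the outermost step for counts of 11 to 20.

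Cores at annotated gene starts had a smaller called share than other cores close in and a larger one at 500 to 1000 bp. A core was counted as a start-site core where a RefSeq start site lay in it or within 100 bp, on the 18 autosomes for which start sites were used, chromosome 18 being left out. This gave 5672 start-site cores and 9480 others. In the innermost step 3.51% of cytosines were called beside start-site cores and 4.89% beside the others, the latter share being larger on 17 of 18 autosomes. At 500 to 1000 bp the order was turned, with 7.22% beside start-site cores and 6.04% beside the others. Beside start-site cores the share at 500 to 1000 bp exceeded the innermost share on 18 of 18 autosomes. Exact zeros made up 15.0% of the innermost step beside start-site cores and 9.48% beside the others.

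**Figure D4:**
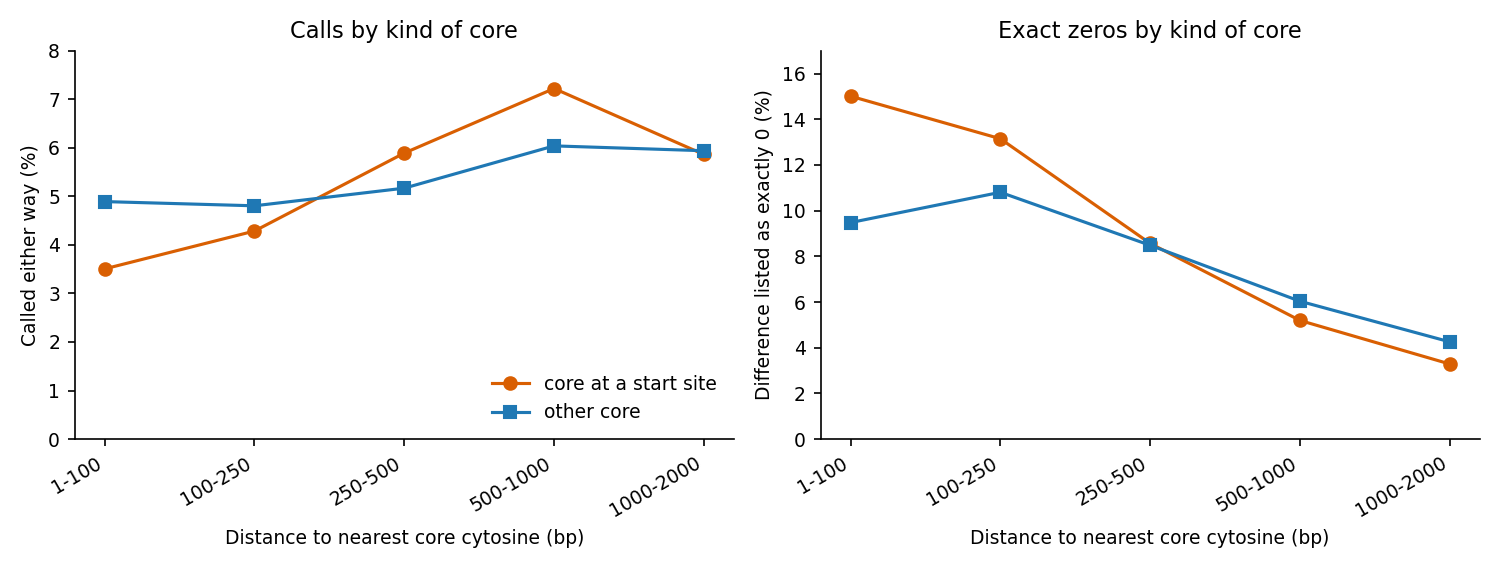
Share called in either direction (left, percent) and share of differences listed as exactly 0 (right, percent) by distance to the nearest core cytosine, for shores of cores at an annotated start site (orange) and of other cores (blue). The orange line rises from 3.51% to 7.22% called, crosses the blue line after 250 bp, and meets it at 1000 to 2000 bp (5.86% and 5.94%).

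Over all distances, upstream and downstream shores of start-site cores were close, with mean differences of -0.32 and -0.31 and 1.35 and 1.25 lower calls for each higher call. They stood farthest apart at 500 to 1000 bp, where upstream the mean difference was -1.04 with 1.92 lower calls for each higher call. Downstream, on the side of the transcribed gene, it was -0.53 with a ratio of 1.18, while the called shares were 6.70% upstream and 7.63% downstream. At 100 to 250 bp the means were -0.18 upstream and -0.19 downstream. The order turned at 250 to 500 bp, with means of -0.33 upstream and -0.56 downstream, and at 1000 to 2000 bp, with -0.36 and -0.60. Without regard to genes, shores at lower coordinates than their core (4.93% called) and at higher ones (5.06%) were alike. Annotated spans of genes held 79.7% of the shore cytosines, with 4.96% called inside and 5.15% outside. The annotation used holds whole genes without their exons.

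Close to a core that was itself called, the shore moved with the core. Far out it did so less beside lower cores, and beside higher cores its mean was below 0. Next to the 715 cores with at least 3 lower and no higher calls, the mean shore difference was -2.35 at 1 to 100 bp and -0.72 at 1000 to 2000 bp. Next to the 425 cores with at least 3 higher and no lower calls it was 1.56 at 1 to 100 bp, -0.06 at 250 to 500 bp and -1.18 at 1000 to 2000 bp. The 9003 cores without any call still had shores in which 5413 cytosines were lower and 4018 higher (3.85% called). There the called share went from 2.86% in the innermost step to 5.78% at 500 to 1000 bp. Shores of the smallest cores, 1 to 9 core cytosines, had 5.31% called and those of cores of 100 or more 4.52%.

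The strands of a CpG give a second reading of the same site, though from the same 4 clones. For 180040 shore CpGs listed on both strands, the differences had a Pearson r of 0.44 across CpGs, from 0.46 in the innermost to 0.39 in the outermost step. Over the called strands, the partner had the same sign in 87.1% and was itself called the same way in 37.8%. In 19 CpGs the strands were called in opposite directions.

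To find single shores that changed, cytosines were gathered into these arms. The side was taken from the nearest core cytosine, so an arm can reach between the core cytosines of its core. Of 27286 arms, 23161 had at least 5 listed cytosines. An arm was called where at least 3 of them and at least 10% were called in 1 direction and none in the other. By this rule 698 arms were lower (3.01% of those tested) and 397 higher (1.71%), a ratio of 1.76. The median of the arm means was -5.71 percentage points in lower arms, 4.77 in higher arms and -0.15 over all tested arms. In 6 lower arms the mean was above 0 and in 5 higher arms below 0. With calls at q under 0.01 the counts were 368 lower and 204 higher arms.

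Most calls lay outside called arms. Called arms held 4502 of the 20434 shore calls (22.0%), and 1938 of the 8877 arms with any call had calls of both signs. The rule asks for at least 3 calls whatever the length of the arm. Arms with 5 to 9 cytosines were lower in 1.10% and higher in 0.677%, those with 20 to 39 in 5.31% and 2.95%, and those with 40 or more in 2.75% and 0.773%. Arms of start-site cores were lower in 2.64% and higher in 1.82%, and those of other cores in 3.19% and 1.69%.

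Arms followed their cores only loosely. Across 18627 arms whose core had at least 10 core cytosines, the arm mean and core mean had a Pearson r of 0.22 and a Spearman coefficient of 0.13, as a description of points that share libraries and neighbours. Of the lower arms, 48.3% stood beside a core with at least 1 lower call, against 26.4% of arms that were not called. Of the higher arms, 39.8% stood beside a core with a higher call, against 22.6%. Both arms of 1 core were lower at 29 cores and higher at 8. At 13 cores the arms were called in opposite directions, and across 6913 cores the means of the 2 arms had a Pearson r of 0.11.

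**Figure D5:**
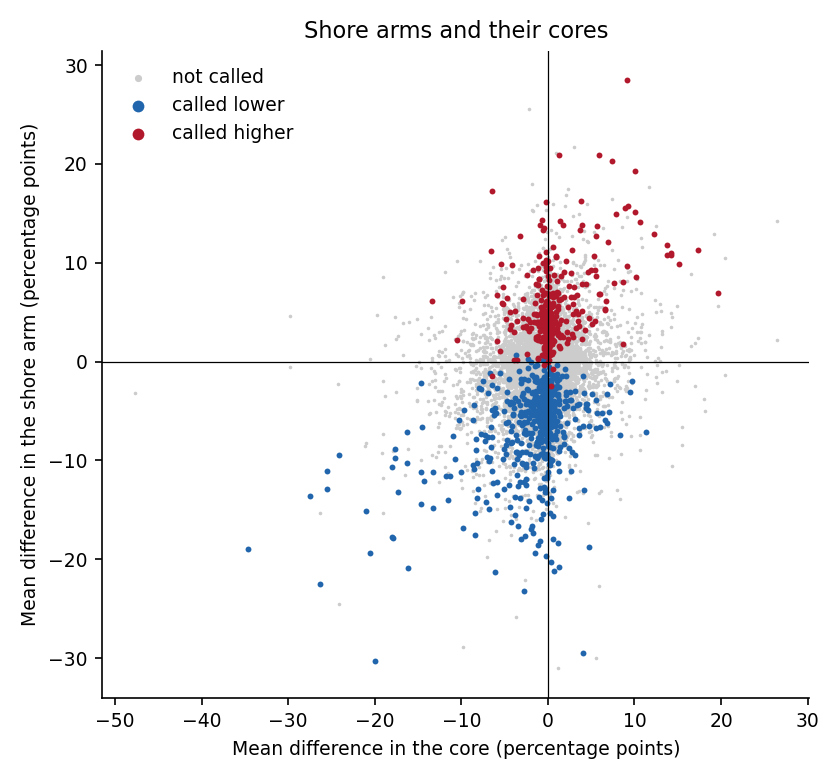
Mean difference of each shore arm (vertical axis, percentage points) against the mean difference of its core (horizontal axis, percentage points) for 18627 arms whose core had at least 10 core cytosines; blue arms were called lower, red higher, grey not called. Many called arms sit near 0 on the core axis, and Pearson r is 0.22.

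Of the 10 lower arms with the lowest means, 9 lay in or near a gene and 1 near none. The arm at Pde8b, chr13:95223258-95225222, had the lowest mean of the called arms, -30.3 over 14 cytosines. Arms that were not called reached -31.0. All 9 of its calls lay in the part nearest the core (chr13:95223258-95223344), and the 5 uncalled cytosines had a median of 0. The arm at Metrn, which encodes the secreted neurotrophic factor meteorin, came next with -29.5 and 4 calls of 9 cytosines (chr17:25794423-25796396). Its core was not lower, with a mean of 4.07 and no call.

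At Btbd9, which encodes a protein with a BTB domain, 13 of 18 cytosines within 194 bp of the core were called lower (chr17:30576566-30576750). They ranged from -50.7 to -19.2 in the authors' deposited table, and the arm mean was -28.5. The core there held 4 core cytosines with a mean of 12.8, 1 of them called higher. The arm without a gene within 5000 bp, chr1:113763212-113763344, had a mean of -24.9 beside a core of 1 cytosine. At Dlgap3, which encodes a scaffold of the postsynaptic density, all 7 cytosines were below 0 and 3 were called, with an arm mean of -23.2 (chr4:127233607-127233670).

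Rgcc, a regulator of the cell cycle, had an arm mean of -22.5 with 4 of 6 called, next to a core with a mean of -26.3 and 11 of 20 core cytosines called lower (chr14:79301411-79301582). This arm reached between the core cytosines, and without such members its call was lost, with a mean of -18.1 for the rest. At the homeobox gene Hoxb3, 5 of 12 cytosines were called lower, between -52.6 and -24.8 in the authors' deposited table, with a mean of -21.3 (chr11:96339911-96340842). The arm of Synpo, whose product binds actin, had 3 of 10 called and a mean of -20.9 beside a core at -16.2 (chr18:60624360-60624391). Gm5737 overlapped an arm with a mean of -20.8 and 4 of 6 called (chr7:120831324-120831365). An arm 363 bp from the long noncoding RNA gene C330013E15Rik was the farthest from its core, at 1801 to 1843 bp, with a mean of -21.2 and 5 of 8 called (chr15:100613735-100613777).

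The 10 higher arms with the highest means held 6 to 12 cytosines each, and several stood beside cores with higher calls. The arm 141 bp from Rbpms, which encodes an RNA-binding protein, had a mean of 28.5 and all 9 cytosines above 0 (chr8:33930063-33930097). Its core went the same way, with 27 of 111 core cytosines called higher and a mean of 9.12. The arm 384 bp upstream of Sipa1l2, for a protein of a family that acts on the GTPase Rap, had a mean of 20.9, and 26 of 103 core cytosines beside it were higher (chr8:125570247-125570329). In Cacng7, which encodes an auxiliary subunit of calcium channels and glutamate receptors, 5 of 8 cytosines were higher and the arm mean was 20.9 (chr7:3333318-3333349). Its core did not follow, with no call and a mean of 1.32.

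Foxf2, a forkhead factor of mesenchyme, had an arm mean of 20.3 with 4 of 6 called (chr13:31629788-31629812). Chgb had a mean of 19.3 in the arm downstream of its start site with 4 of 10 called (chr2:132781804-132781942). Its core, which lies between this arm and the printed upstream cytosines, had 10 higher calls and 1 lower call among 44. Pltp, which encodes the phospholipid transfer protein of plasma, had a mean of 16.4 with 5 of 10 called (chr2:164857599-164857628). Ptgr2 reached 16.2 in the 6 cytosines printed above. The arm 542 bp upstream of Dnaja2, a co-chaperone gene, had a mean of 16.1 beside a core without a call (chr8:85555903-85555994). With calls at q under 0.01, 8 of the 20 called arms named here for their means were no longer called. They were those at Metrn, Dlgap3, Hoxb3, Synpo, Rbpms, Sipa1l2 and Chgb and the one without a gene.

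At Lhx5, a LIM-homeobox gene, arm and core had calls of opposite sign. Of 12 cytosines in the arm chr5:120435865-120436244, 7 were called higher, from 9.59 to 54.1 in the authors' deposited table, with a mean of 17.3. The core beside it had 11 of 59 core cytosines called lower and a mean of -6.51. Its other arm, chr5:120436173-120437090, was called lower with a mean of -4.93. Both arms reached between the core cytosines, and the 7 higher calls lay outside them, at chr5:120435865-120435978. A higher flank thus stood against a lower core and a lower arm. Lhx5 itself had a mean normalized count of 0.496 in the authors' deposited table, too low for an adjusted p.

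Calls in shores were then set beside RNA. In RNA of whole cultures, fewer cells that express a gene and less RNA per cell cannot be told apart. Of 11482 genes with an adjusted p, 7385 overlapped a tested arm, and of these 5.70% rose and 4.81% fell by an adjusted p below 0.05, against 6.15% and 4.74% of all 11482. Of 294 genes with a lower arm only, 30 rose (10.2%) and 10 fell (3.401%). Of 220 with a higher arm only, 15 rose (6.82%) and 9 fell (4.09%). The median log2 fold change was 0.05 with a lower arm, 0.02 with a higher arm and -0.01 over all genes with a tested arm. In all, 66 genes overlapped a called arm and passed the test of RNA, 46 that rose and 20 that fell. No test of the link between arm and RNA was made, since genes are not replicates of the clones.

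The largest rises among these genes came with arms of both signs. Cxcl12, a chemokine gene, rose by a log2 fold change of 6.68 (SE 0.33, adjusted p 1.33e-89) in the authors' deposited table. Its arm, chr6:117169246-117169397, 711 bp downstream of a start site, had 5 of 18 cytosines called lower, from -33.0 to -22.7, and 17 of 18 below 0. Synpo rose by 2.17 (0.33) and Rgcc by 1.84 (0.39) as log2 values in the authors' deposited table, with the lower arms described above. Tle2, a corepressor gene of the Groucho family, rose by 1.97 (0.26) with 3 of 15 lower, and Kalrn, which encodes a guanine nucleotide exchange factor, by 1.76 (0.29) with 4 of 28 lower, in the authors' deposited table.

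Higher arms stood at the other 3 of these 8 genes. Cpt1a, which encodes an enzyme for the entry of fatty acids into mitochondria, rose by 1.88 (SE 0.25) in the authors' deposited table. Its arm had 3 of 22 cytosines higher and a mean of 2.33. The growth-responsive gene Egr1 rose by 1.77 (0.17) in the authors' deposited table with 3 of 25 higher and a mean of 2.46. Pdlim2, for a protein with PDZ and LIM domains, rose by 1.61 (0.25) in the authors' deposited table with 3 of 26 higher, although its arm mean was -1.42. These 3 arms had means between -1.42 and 2.46. The lower arms of the 8 genes had means from -22.5 at Rgcc to -4.22 at Tle2, with -11.9 at Cxcl12. Some lower arms at other genes that rose had means as small, such as -1.57 at Egr3 and -1.52 at Klf2.

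Of the 8 largest falls among these genes, 5 came with higher arms, 2 with lower arms and 1 with both. This lean was not seen over all 20 that fell. Of those, 10 had a lower arm only, 9 a higher arm only and 1 both, among 294, 220 and 9 such genes. Foxc2, a forkhead gene of mesenchyme and vessels, fell by 1.48 on the log2 scale (SE 0.23, adjusted p 1.69e-08) in the authors' deposited table. In its arm, chr8:121114776-121116294, 14 of 64 cytosines were called higher, between 11.1 and 41.3, and all 14 lay 1394 to 1546 bp from the core. The core of 56 core cytosines had no call. Map2, with 11 of the 14 printed cytosines higher, fell by 1.36 (0.37; adjusted p 0.00564) in the authors' deposited table.

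Thbd, which encodes the anticoagulant receptor thrombomodulin, fell by 1.39 (SE 0.20) with 3 of 8 higher, and Ptprm, a receptor tyrosine phosphatase gene, by 1.17 (0.29) with 5 of 14 higher, in the authors' deposited table. Exo1, for an exonuclease of DNA repair, fell by 1.07 (0.32) in the authors' deposited table with 4 of 18 higher. Eva1c fell by 1.08 (0.36) and the potassium channel gene Kcnh2 by 1.03 (0.37) in the authors' deposited table, and both had lower arms, with means of -10.9 and -17.7. Olfm1, for a secreted olfactomedin, fell by 1.00 (0.33) in the authors' deposited table and had an arm of each sign, 5 of 29 higher and 3 of 22 lower.

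Several of the named arms stood at genes whose RNA did not pass the test, which does not show that the RNA was unchanged. Metrn (log2 fold change 0.08, adjusted p 0.855), Hoxb3 (0.01, adjusted p 0.986) and Cacng7 (adjusted p 0.999) did not pass the test in the authors' deposited table. Pde8b had 0.68 (SE 0.31, adjusted p 0.150), and Ptgr2 -0.75 (SE 0.39, adjusted p 0.223) in the authors' deposited table. Btbd9 rose by 0.65 (0.23, adjusted p 0.0449) in the authors' deposited table. Chgb, with a mean normalized count of 4.42, had no adjusted p there.

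Of 97 homeobox and paired-box genes with a tested arm, 20 overlapped a lower arm (20.6%) and 6 a higher one (6.19%), against 5.21% and 3.26% of all 11180 genes with a tested arm. These genes also hold many arms. Counted by arm, 22 of 356 were lower (6.18%) and 9 higher (2.53%), against 2.88% and 1.68% of all arms that overlap a gene. The median over the list of the mean arm difference per gene was -0.84, and -0.17 over all genes. Of T-box, Sox, Fox and Gata genes, 7 of 56 overlapped a lower arm (12.5%) and 5 a higher one (8.93%), with a median of -0.31. By arm, 14 of 198 were lower (7.07%) and 5 higher (2.53%).

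Within the homeobox and paired-box genes the lower arms with the lowest means besides that of Hoxb3 were those of Lhx4, Barx2 and Pax2. Lhx4, which acts in motor neurons and the pituitary, had a lower arm 3262 bp downstream of its start site with a mean of -17.6, in which the called cytosines reached -72.1 in the authors' deposited table. Its arms 301 and 14 bp downstream of the start site were higher, with means of 10.8 and 10.96. Barx2 had 2 lower arms at 1 core, with means of -17.5 and -15.3. These arms overlap, so part of them lay between core cytosines. Pax2, which patterns kidney and midbrain, had a lower arm at -13.8, 123 bp downstream of a start site, and higher arms at 4.13 and 4.90 some 78752 and 80320 bp downstream.

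Lower arms stood also at Hoxb9 (mean -13.5), Nkx2-2 (-12.5), Pax3 (-11.5), Hoxb13 (-8.19), En2 (-7.23), Pitx1 (-6.81), Evx2 (-6.62), Barx1 (-6.17), Irx6 (-6.14), Cdx2 (-6.08) and Lhx3 (-5.22). Lhx2 had 2 lower arms (-5.24 and -5.03), and Lhx1 (-4.75), Nkx2-3 (-3.57) and Hoxc6 (-2.81) had 1 each. Hoxc6 rose by a log2 fold change of 0.77 (SE 0.23, adjusted p 0.0151) in the authors' deposited table. Higher arms stood at Irx5 (12.9 and 15.7), Pax7 (7.80) and Dlx6 (3.29). Of the 20 genes with a lower arm, 3 (Hoxb3, Hoxb9 and Hoxc6) had enough RNA for an adjusted p in the authors' deposited table, so most of these arms stood at genes with few reads over the clones together.

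Among T-box genes, Tbx5, of heart and forelimb, had 4 (means -6.62, -4.95, -3.23 and -2.25), and Tbx4, of the hindlimb, had 3 lower arms (-5.11, -4.67 and -1.71) and a higher one (4.84). Foxf1 had 2 lower arms at 1 core (-11.2 and -5.30), which overlap, so part of them lay between core cytosines. Sox14 had 2 lower arms (-5.57 and -4.16). Sox6 (-10.005), Gata3 (-4.54) and Foxo1 (-1.50) had 1 each. Higher arms stood at Foxf2 and Foxc2, described above, and at Sox18 (9.47) and Sox10 (1.07).

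Of 54 genes of Wnt, Notch, TGF-beta and FGF signalling with a tested arm, 6 overlapped a lower arm (11.1%) and 5 a higher one (9.26%), against 5.21% and 3.26% of all genes with a tested arm. By arm, 7 of 177 were lower (3.95%) and 5 higher (2.82%), against 2.88% and 1.68% of all arms that overlap a gene. The lower ones were Bmp4 (arm mean -17.4), Wnt7b (-11.0 and -3.60), Hes1 (-7.67), Fgf8 (-1.98), Tgfb1 (-1.79) and Wnt6 (-0.58). The higher ones were Hey1 (11.2), Tgfb2 (10.0), Wnt11 (7.80), Wnt10a (6.56) and Jag2 (5.15). Hes1, a repressor downstream of Notch, rose by a log2 fold change of 1.37 (SE 0.34, adjusted p 0.00154) in the authors' deposited table.

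Of 37 growth-factor feedback and immediate early genes, 5 had a lower arm and Egr1 a higher one. The lower arms were at Nr4a2 (-16.7), Mycl (-14.7), Dusp1 (-3.95), Egr3 (-1.57) and Klf2 (-1.52). Egr3 and Klf2 rose by 1.49 (SE 0.24) and 1.38 (0.36) as log2 values in the authors' deposited table. Of 41 matrix genes tested, 22 rose in RNA in the authors' deposited table, against 706 of all 11482 tested genes (6.15%). Of the list, 17 had a tested arm, of which Col4a1 (-13.7) and Lamb1 (-4.78) had a lower and Efemp2 (3.00) a higher one. None of these 3 passed the test of RNA in the authors' deposited table. By arm, 2 of 32 in the matrix list were lower (6.25%) and 1 higher (3.125%), against the same 2.88% and 1.68%.

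Ribosomal protein genes, which are active in all cells, had 1 higher arm (Rpl19, 10.1) among 41 genes and no lower one. Of 27 genes of the cell cycle and replication, Plk1 had a lower arm (-3.26). Among 30 imprinted genes, expressed from 1 parental copy, no lower arm was found, and higher arms stood at Grb10 (4.77) and at Peg13 within Trappc9, where the same arm counts for both (11.2, with 8 of 38 higher). The 7 clustered protocadherin genes with a higher arm, Pcdha1 to Pcdha7, share 1 arm of 6 cytosines (5.51). Over all genes with a tested arm 5.21% had a lower arm and 3.26% a higher one, so lists of this size hold few. By arm, 1 of 65 ribosomal (1.54%), 2 of 73 imprinted (2.74%) and 1 of 29 protocadherin arms (3.45%) were higher. That compares with 1.68% of all arms that overlap a gene. In the cell cycle list 1 of 48 arms was lower (2.08%), against 2.88%.

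In the DNA methylation machinery, 2 of 19 genes had a lower arm and 1 a higher one. Counted by arm, 2 of 43 were lower (4.65%) and 1 higher (2.33%), against 2.88% and 1.68% of all arms that overlap a gene. Tet1, which oxidises methylated cytosine, had 3 of 10 cytosines lower, from -10.7 to -7.58 in the authors' deposited table, 40 to 43 bp from a core in which 13 of 34 core cytosines were lower as well. That arm lies 196 bp downstream of a start site. Of 18 shore cytosines upstream of that start site, 3 were called lower and 1 higher (14.9). Tet1 RNA rose by a log2 fold change of 0.74 (SE 0.23, adjusted p 0.0200) in the authors' deposited table. Usp7 had a lower arm (mean -1.43) and the methyltransferase gene Dnmt3b a higher one, with 4 of 29 higher and a mean of 2.57. Neither passed the test of RNA (adjusted p 0.536 and 0.292 in the authors' deposited table). The 5 genes of the 14-3-3 family with a tested arm had no called arm, and neither had the 3 fibroblast, 4 epithelial and 1 blood and endothelial marker genes with one. With 5.21% lower and 3.26% higher over all genes with a tested arm, an absence in lists this small carries no weight.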

How the data were processed

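Both assays were analysed from the authors' deposited tables of their own comparison, which hold no value per clone. Reads were processed with Trim Galore, Bismark, Bowtie2, methylKit, TopHat2, HTSeq and DESeq2 on build mm10, per the submitters' processing notes, which give no versions. Settings for clones and coverage in the methylation comparison were not given in the sources used here. Where reads were pooled, q-values hold read sampling and no spread between clones. The methylation table the authors deposited lists for each cytosine the methylation difference in percentage points beside a q-value and a p-value, per the file headers. The RNA table the authors deposited gives a mean level, a signal read here as the mean normalized count, a log2 fold change with its standard error, a test statistic (a score), a p-value and an adjusted p-value.

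After 253 duplicate lines were dropped, 2361680 cytosines were left. Densities, distances and unweighted means were computed with Python 3.11.15, numpy 2.4.6 and pandas 2.3.3, figures were drawn with matplotlib 3.10.9, and the assignment of cytosines to cores and arms was tested on simulated positions. Calls used the authors' q under 0.05 and adjusted p under 0.05, adjusted over their whole tables. Genes were given an arm where the RefSeq gene span (GRCm38.p6) overlapped it. Of 24062 RNA symbols, 22550 were current in RefSeq and 1352 were found as 1 gene's synonym.

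Named were the 10 called arms with the lowest and the 10 with the highest mean, each with its overlapping gene or the nearest within 5000 bp. Named as well were the 8 genes with the largest rise and the 8 with the largest fall among those with a called arm and a called change of RNA, and the list genes with a called arm. Of these, 1 result is not reported here. Members and gene lists were chosen with earlier results of these data known. Alternatives varied the core count, window, distance, strands, weights, thresholds and arm rule.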

Additional observations from a re-analysis of the deposited data

How the results depend on the processing

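The sign of the mean shore difference, of the difference between shore and core, and of the means of the 5 distance steps was kept under every alternative run except 1. Among the 80 cytosines with counts of 1 to 4 within 100 bp, the mean was 2.06, with 4 higher and 2 lower calls. The share of shore cytosines called (4.998%) was 5.501% with cores of 16 or more, 4.15% with 31 or more, 3.94% with a 50 bp window, 5.66% with 200 bp and 4.90% up to 1000 bp. It was 7.31% with the strands joined, 2.70% at q under 0.01, 1.32% at 25 points or more, and 5.08% without members between core cytosines, an alternative chosen after seeing the data. Shore minus core (-0.19) was -0.09 at 31 or more (-0.0929) and in a 50 bp window (-0.0903), and -0.0839 with each arm counted once. Calls fell to 6556 lower and 4475 higher at q under 0.01, and to 3394 and 1986 at 25 points or more. Called arms fell to 368 lower and 204 higher at q under 0.01, and to 362 and 198 with calls at 20% or more, which left 40 genes with a change of RNA. Means were -0.21 at 100 to 250 bp for counts of 1 to 4 (-0.214), and -0.52 at 1 to 100 bp for counts of 5 to 10 (-0.521). Of the 20 named arms, 8 lost their call at q under 0.01, 11 with at least 10 cytosines asked for, and that of Rgcc without members between core cytosines. Up to 1000 bp the arm near C330013E15Rik had no cytosine left. No named arm reversed under these settings. The causes of these changes were not tested beyond what a stricter rule does by its construction. No paired analysis was possible because the tables hold no value per clone, and for the same reason no clone could be left out. Depth is unknown, so whether an uncalled cytosine differed cannot be read from these tables. Each clone group is 2 clones, and the sign of both comparisons was assumed.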

Other observations

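Some 20473 shore cytosines (5.01%) lay between the first and the last core cytosine of their own core, in gaps where listed cytosines thin out. They were called less often than the other shore cytosines, 3.53% against 5.08%, with a mean difference of -0.26 against -0.43, and 15.2% of them were listed at exactly 0, against 9.32%. Their mean local count was 18.2, close to the limit of 21 that makes a core cytosine, against 12.9 for the others.

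Promoter entries of 300 bases differed in the number of CpGs by what they held. Entries with shore cytosines and no core cytosine numbered 2155 and had a median of 18 CpGs, and the 4649 with both had 26. The 2165 with core cytosines alone had 33, and the 22427 with neither had 4. At least 3 lower calls of shore cytosines were found in 37 of the 2155 entries of the first kind and 58 of the 4649 of the second. At least 3 higher calls were found in 18 and 33. Over all 31396 entries the counts were 95 and 51.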
